A study of Homo sapiens with 15 samples.

Results

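The genes described here are 10 genes tied to the YAP pathway and the CCN family: CCN1, CCN2, CCN5, ANKRD1, AMOTL2, YAP1, WWTR1, LATS2, FRMD6 and CAVIN2. They were chosen by name, with earlier results of these data known, from the gene symbols of the count files, which list 43388 genes. Counts of them are therefore set beside shares over all genes as a description and not as a test. All 10 passed the filter on low counts in both fits used, which kept 14957 genes in a fit of 10 libraries and 15339 in a fit of 14. RNA-seq was performed on A549 cells, an established human lung epithelial line from an adenocarcinoma, of wild-type genotype and grown in medium with serum. Cells received all-trans retinoic acid (ATRA, 1e-05 mM) in ethanol, the ethanol vehicle, or neither, and after 24 hours spent 72 hours in hyperoxia (95% oxygen) or normoxia (21% oxygen). Vehicle was given to 2 libraries at each oxygen exposure and ATRA to 3 libraries at each, and 2 libraries at each received neither. A 15th library, whose title names hyperoxia but whose treatment label names another treatment, has no group and entered no comparison. A single tumour line stands in for lung epithelium, no time point before 72 hours was analysed here, and the labels do not say whether libraries of a group came from separate cultures, so p-values measure only the spread between these libraries.

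YAP1 and WWTR1 (also called TAZ) are transcriptional coactivators that bind DNA through TEAD factors. When the Hippo kinases, ending in LATS1 and LATS2, phosphorylate them, they are kept out of the nucleus or degraded, and when the kinases are less active they enter it and raise genes such as CCN1, CCN2, ANKRD1 and AMOTL2. In lung epithelium the pathway is known for its part in growth, stretch responses and repair. Some targets feed back on the pathway, since LATS2 and AMOTL2 restrain YAP1. RNA counts measure transcripts only. The phosphorylation and location of YAP1 and WWTR1 were not measured.

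The promoters of 2 direct targets are shown because the TEAD motif through which YAP1 and WWTR1 act can be read in them. Each line gives the 250 bases before the annotated start of transcription, 5′ to 3′ on the minus strand, from RefSeq for GRCh38.p14. CCN2 is at chr6:131951373-131951622 and ANKRD1 at chr10:90921088-90921337. Capitals mark GGAATG, the core TEAD motif, and, in ANKRD1 only, 1 match to TGANTCA, a loose form of the AP-1 motif. The match reads TGATTCA, whereas the AP-1 consensus has C or G at the base written N.
CCN2: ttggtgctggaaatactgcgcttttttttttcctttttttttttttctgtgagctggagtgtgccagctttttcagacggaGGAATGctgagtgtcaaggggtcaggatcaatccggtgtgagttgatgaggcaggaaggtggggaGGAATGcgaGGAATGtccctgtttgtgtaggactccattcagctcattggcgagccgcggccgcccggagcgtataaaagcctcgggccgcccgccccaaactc
ANKRD1: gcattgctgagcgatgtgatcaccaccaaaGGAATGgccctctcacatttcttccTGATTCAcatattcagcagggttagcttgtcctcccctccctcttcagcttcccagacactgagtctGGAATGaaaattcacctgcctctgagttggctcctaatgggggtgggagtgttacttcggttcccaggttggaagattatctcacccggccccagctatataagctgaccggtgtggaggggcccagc
The CCN2 stretch holds 3 copies of GGAATG, which begin at positions -169, -104 and -95, counted from the start of transcription. The ANKRD1 stretch holds 2, at -220 and -128, and the TGANTCA match begins at -195. Motifs were searched on both strands from 250 bases before to 50 bases after each start, and no TEAD match overlaps a TGANTCA match in these promoters. GGAATG occurred in 6 of the 8 genes that have a promoter entry (CCN2, ANKRD1, AMOTL2, YAP1, LATS2 and CAVIN2) and in 14% of 35116 promoters. TGANTCA, with any base at N, occurred in 1 of the 8 and in 7.71% of promoters. The 8 genes have 10 promoters, and AMOTL2 held a match at only 1 of its 2 starts. Genes were counted with a match at any start, while the shares are of single promoters, so the 2 are unlike measures. A match describes the sequence alone, and binding was not measured.

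**Figure D1:**
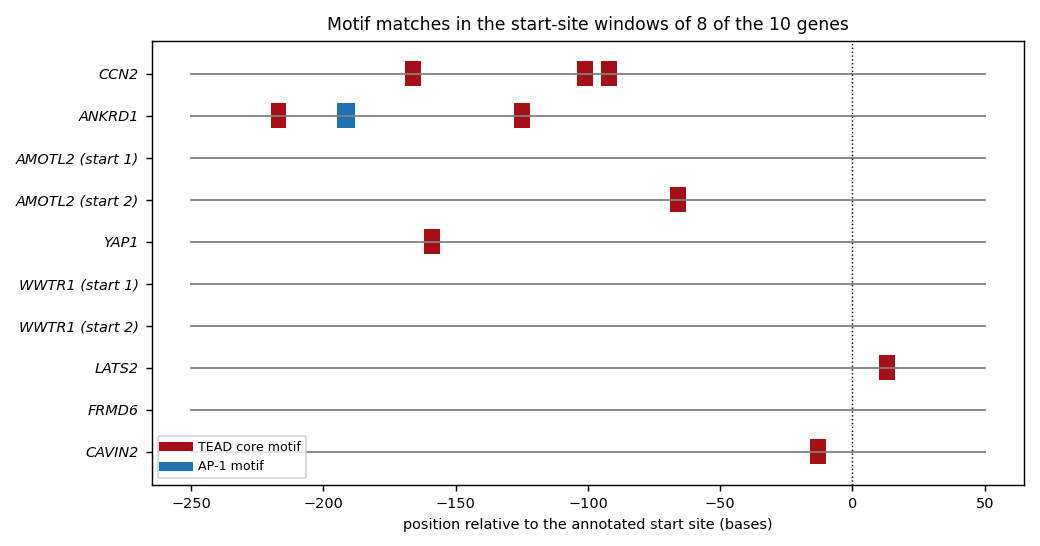
Positions of the GGAATG and TGANTCA motifs in the promoters of the genes with an entry, plotted as distance in bases from the start of transcription, with 1 line for each annotated start. CCN2 shows 3 TEAD motifs, ANKRD1 shows 2 and a TGANTCA match (keyed as AP-1 motif), and WWTR1 and FRMD6 show none of either.

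Libraries held between 2642377 and 5605072 counts on genes, so that 3 counts, the floor used here, corresponded to between 0.535 and 1.14 CPM (counts divided by TMM-normalized library size). The floor covers counting error only, while the SEs and intervals given below also hold the spread between libraries. Replicate 1 of hyperoxia without vehicle stood apart from the others. It had counts on 12657 genes against between 16465 and 20108 in the other 13, and lay at -199 on the first principal component (41.2% of variance) against between -9.27 and 35.6. The fold changes of the 10 genes in the comparison without vehicle are given below with and without it. Leaving it out leaves 1 hyperoxia library in that comparison. All 6 epithelial markers were detected, with a summed level between 3317 and 7001 CPM in the hyperoxia libraries and between 7221 and 11879 CPM in the normoxia libraries. EPCAM, one of these markers, did not exceed 4.80 CPM. Summed markers of fibroblasts, endothelium, leukocytes and adipocytes reached at most 3.83, 6.26, 1.91 and 1.53 CPM. Of these markers, DCN, VWF, CD3E, ADIPOQ and LEP had no count in any library, which allows up to 1.14 CPM. The others had counts in at least 1 library, the highest being CDH5 at up to 5.22 CPM and COL3A1 at up to 3.02 CPM. The epithelial markers moved with oxygen in the same libraries as every oxygen comparison below, and their part in those results was not tested.

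Most of these genes were higher in hyperoxia. With vehicle, 8 of the 10 passed the test (adjusted p under 0.05 in the quasi-likelihood test of edgeR, corrected after Benjamini and Hochberg over all genes), 7 higher and 1 lower in hyperoxia, where 17.5% of all 14957 genes passed, 8.68% higher and 8.81% lower. With ATRA, 9 passed, 8 higher and 1 lower, where 22.7% of all genes passed, 11.4% higher and 11.3% lower. Without vehicle, 5 passed and all 5 were higher, where 15.2% of 15339 genes passed, 7.57% higher and 7.58% lower. Without the library that stood apart, that comparison rests on 1 hyperoxia library. The log2 fold changes were then 2.59 for CCN1, 1.22 for CCN2, 2.27 for CCN5, 1.15 for AMOTL2 and 2.55 for FRMD6. The median log2 fold change of the 10 genes was 1.08 with vehicle, 0.82 with ATRA and 0.87 without vehicle, beside 0.01, 0.01 and -0.10 over all genes tested. CCN1, CCN2, CCN5, AMOTL2 and FRMD6 rose in all 3 comparisons, as did 4.05% of all genes, while 4.47% fell in all 3. When the 4 libraries without vehicle were fitted alone, CCN1 was the member that still passed (adjusted p = 0.0454, edgeR), with FRMD6 at 0.0545, AMOTL2 at 0.104, CCN2 at 0.131 and CCN5 at 0.144. In a fit of all 14 libraries, ANKRD1, LATS2 and CAVIN2 lost their call with vehicle (adjusted p between 0.0923 and 0.114, edgeR) and with ATRA (between 0.0509 and 0.0942). In bulk RNA, fewer cells of a type and less RNA per cell cannot be told apart.

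**Figure D2:**
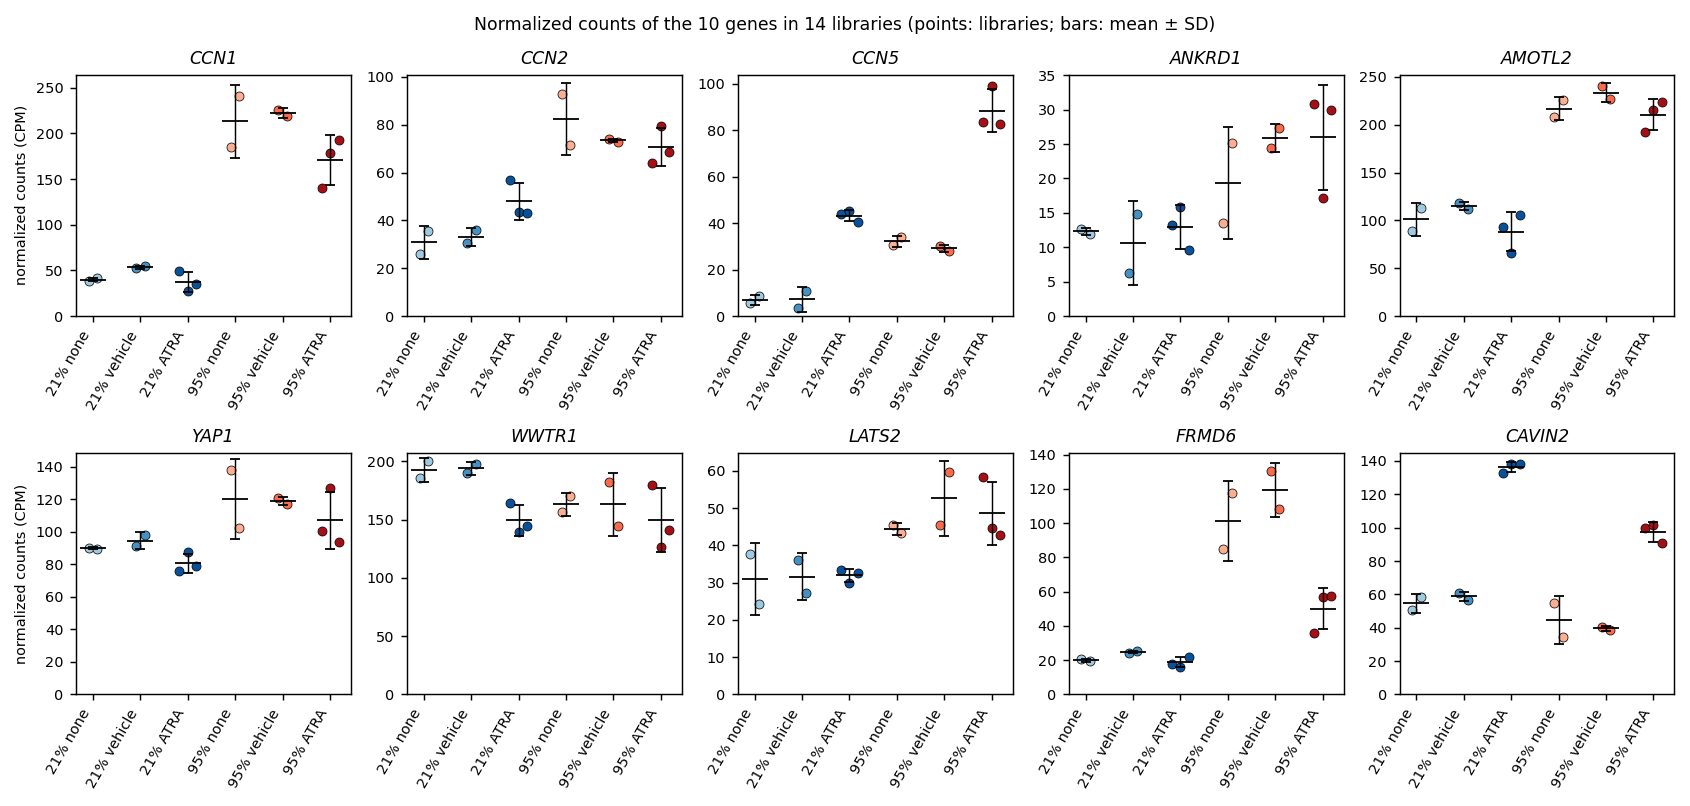
Level of each of the 10 genes in the 14 libraries with a group, in CPM, 1 point for each library, with the mean and SD of each of the 6 groups (2 or 3 libraries each) as bars. The 7 hyperoxia libraries lie above the 7 normoxia libraries for CCN1, CCN2, AMOTL2, LATS2 and FRMD6, and the ATRA libraries lie highest for CCN5 in hyperoxia and for CAVIN2 in normoxia.

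Gene numbers and positions given below are those of RefSeq for GRCh38.p14. Every hyperoxia library exceeded every normoxia library for 5 of the 10 genes (CCN1, CCN2, AMOTL2, LATS2 and FRMD6), whatever the treatment. Over all 15339 genes, 13.7% did not overlap between the 7 hyperoxia and the 7 normoxia libraries, and 6.34% had all hyperoxia libraries higher. Without replicate 1 of hyperoxia without vehicle, ANKRD1 joined these 5, and the share of genes was 16.2%, with 8.03% higher.

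CCN1 (gene 3491, chr1:85580761-85583950) encodes a secreted matricellular protein that binds integrins and is a standard readout of YAP1 activity. It measured 226 and 219 CPM in the 2 hyperoxia libraries with vehicle and 52.5 and 54.6 CPM in the 2 normoxia libraries with vehicle. With ATRA it measured 140.1, 178 and 193 CPM in hyperoxia and 49.6, 27.5 and 35.7 CPM in normoxia, and without vehicle 185 and 241 CPM against 38.6 and 41.3 CPM. The lowest hyperoxia value, 140.1 CPM, lay above the highest normoxia value, 54.6 CPM. CCN1 rose 4.14-fold in hyperoxia with vehicle (log2 fold change 2.05 with a standard error, SE, of 0.20, adjusted p = 2.73e-07, edgeR). The rise was 4.50-fold with ATRA (log2 2.17, SE 0.17, adjusted p = 9.28e-09, edgeR) and 5.33-fold without vehicle (log2 2.41, SE 0.23, adjusted p = 5.36e-06, edgeR).

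CCN2 (gene 1490, chr6:131948176-131951372), also known as connective tissue growth factor, is a secreted protein that promotes matrix production, and its promoter is the first of those printed above. Its level was 74.0 and 72.9 CPM in hyperoxia with vehicle and 30.6 and 35.8 CPM in normoxia with vehicle. Without vehicle it was 92.9 and 71.7 CPM in hyperoxia and 25.9 and 35.7 CPM in normoxia, and with ATRA 64.2, 79.6 and 68.5 CPM against 56.9, 43.7 and 43.2 CPM. The groups did not overlap, and with ATRA they lay closest. CCN2 rose 2.19-fold with vehicle (log2 1.13, SE 0.20, adjusted p = 0.000336, edgeR), 2.68-fold without vehicle (log2 1.42, SE 0.23, adjusted p = 0.000581, edgeR) and 1.47-fold with ATRA (log2 0.55, SE 0.16, adjusted p = 0.0166, edgeR). The rise with ATRA lost its call without hyperoxia ATRA replicate 2 (adjusted p = 0.0789, edgeR), normoxia ATRA replicate 2 (0.0533) or normoxia ATRA replicate 3 (0.0900), and in the fit of 14 libraries (0.0588).

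CCN5 (gene 8839, chr20:44714861-44727811) is the family member whose protein lacks the C-terminal domain of CCN1 and CCN2, and it is known to oppose some of their actions. It measured 30.2 and 28.1 CPM in hyperoxia with vehicle and 3.48 and 10.996 CPM, from 10 and 62 counts, in normoxia with vehicle. Without vehicle it measured 30.6 and 33.9 CPM against 5.46 and 8.64 CPM, and with ATRA 83.5, 99.1 and 82.6 CPM against 43.8, 45.3 and 40.6 CPM. Within each treatment hyperoxia was higher with no overlap, but normoxia with ATRA lay above hyperoxia without it. The rise was 3.64-fold with vehicle (log2 1.87, SE 0.30, adjusted p = 0.000137, edgeR), 4.59-fold without vehicle (log2 2.20, SE 0.36, adjusted p = 0.000740, edgeR) and 2.04-fold with ATRA (log2 1.03, SE 0.21, adjusted p = 0.000938, edgeR). The size of the rise with vehicle depended on which normoxia library was kept, since its log2 fold change was 3.03 without normoxia vehicle replicate 2 and 1.37 without normoxia vehicle replicate 1, both called (adjusted p = 1.96e-05 and 0.00316, edgeR). The antisense gene KCNK15-AS1 overlaps CCN5 and held 4.40% as many counts, and the strand setting of the counting is not given in the sources used here.

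AMOTL2 (gene 51421, chr3:134355345-134375417) encodes an angiomotin-like scaffold that binds YAP1 and holds it outside the nucleus, and it is itself a YAP1 target. Levels were 241 and 227 CPM in hyperoxia with vehicle and 118 and 112 CPM in normoxia with vehicle. Values with ATRA were 192, 215.0 and 224 CPM against 93.6, 65.9 and 106 CPM, and without vehicle 208 and 225 CPM against 89.1 and 113 CPM. Hyperoxia libraries were all higher, and their spread was small beside the gap to normoxia. AMOTL2 rose 2.04-fold with vehicle (log2 1.03, SE 0.17, adjusted p = 0.000171, edgeR), 2.37-fold with ATRA (log2 1.24, SE 0.14, adjusted p = 1.50e-06, edgeR) and 2.14-fold without vehicle (log2 1.10, SE 0.19, adjusted p = 0.000913, edgeR).

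ANKRD1 (gene 27063, chr10:90912096-90921087) encodes an ankyrin-repeat protein of the nucleus and, in muscle, of the sarcomere, and its promoter is the other one printed above. Its levels were low, with 24.4 and 27.4 CPM in hyperoxia with vehicle and 6.26 and 14.9 CPM in normoxia with vehicle. With ATRA it measured 30.8, 17.2 and 30.0 CPM against 13.3, 15.9 and 9.63 CPM, and without vehicle 13.6 and 25.1 CPM against 12.7 and 12.0 CPM. Hyperoxia was higher within each treatment, but its lowest library, replicate 1 without vehicle, lay within the normoxia range. ANKRD1 rose 2.34-fold with vehicle (log2 1.23, SE 0.38, adjusted p = 0.0275, edgeR) and 2.04-fold with ATRA (log2 1.03, SE 0.31, adjusted p = 0.0201, edgeR). Without vehicle the log2 fold change was 0.63 (SE 0.46, 95% interval -0.35 to 1.61, adjusted p = 0.375, edgeR), and 1.02 without replicate 1 of that hyperoxia group (adjusted p = 0.165). With vehicle it was 0.77 and not called without normoxia vehicle replicate 1 (adjusted p = 0.342, edgeR) and 2.02 without normoxia vehicle replicate 2 (0.0115), and the call was lost without hyperoxia vehicle replicate 1 (0.0915) or replicate 2 (0.175). With ATRA it was lost without replicate 1 or 3 of hyperoxia (adjusted p = 0.0544 and 0.0735, edgeR) or of normoxia (0.0553 and 0.103).

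FRMD6 (gene 122786, chr14:51396431-51730727) encodes a FERM-domain protein placed upstream of the Hippo kinases, related to Drosophila Expanded. It gave the largest change with vehicle among the 10 genes, with 130.4 and 108 CPM in hyperoxia and 24.3 and 25.2 CPM in normoxia. Without vehicle it measured 84.9 and 118 CPM against 20.5 and 19.4 CPM, and with ATRA 36.1, 57.0 and 57.4 CPM against 18.0, 16.2 and 21.9 CPM. All hyperoxia libraries were higher, and those with ATRA were the lowest of them. The rise was 4.79-fold with vehicle (log2 2.26, SE 0.24, adjusted p = 6.25e-07, edgeR), 5.05-fold without vehicle (log2 2.34, SE 0.26, adjusted p = 2.55e-05, edgeR) and 2.65-fold with ATRA (log2 1.40, SE 0.20, adjusted p = 3.18e-05, edgeR).

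LATS2 (gene 26524, chr13:20973036-21061586) encodes a kinase that phosphorylates YAP1 and WWTR1, and is also one of their targets. Its level was 45.6 and 59.8 CPM in hyperoxia with vehicle and 36.1 and 27.1 CPM in normoxia with vehicle. It was 58.4, 44.8 and 42.7 CPM against 33.4, 30.0 and 32.5 CPM with ATRA, and 45.5 and 43.3 CPM against 37.8 and 24.2 CPM without vehicle. Hyperoxia libraries were higher without overlap, the lowest at 42.7 CPM and the highest normoxia library at 37.8 CPM. LATS2 rose 1.69-fold with vehicle (log2 0.76, SE 0.23, adjusted p = 0.0273, edgeR) and 1.53-fold with ATRA (log2 0.61, SE 0.19, adjusted p = 0.0254, edgeR). Without vehicle the log2 fold change was 0.51 (95% interval -0.06 to 1.09, adjusted p = 0.215, edgeR), 0.47 without the hyperoxia library that stood apart, 0.83 without normoxia replicate 1 of that treatment and 0.19 without normoxia replicate 2. With vehicle the call was lost without hyperoxia vehicle replicate 2 (adjusted p = 0.382, edgeR), normoxia vehicle replicate 1 (0.0530) or replicate 2 (0.347). With ATRA it was lost without hyperoxia ATRA replicate 1 (adjusted p = 0.117, edgeR) or any of normoxia ATRA replicates 1, 2 and 3 (0.0558, 0.0682 and 0.0687).

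Of the coactivators, YAP1 passed in 1 of the 3 oxygen comparisons and WWTR1 in none. YAP1 (gene 10413, chr11:102110447-102233424) measured 121 and 117 CPM in hyperoxia with vehicle and 91.1 and 98.3 CPM in normoxia with vehicle. It measured 100.4, 127 and 94.0 CPM against 76.2, 87.4 and 78.9 CPM with ATRA, and 138 and 103 CPM against 90.3 and 89.5 CPM without vehicle. Hyperoxia was higher within each treatment, although hyperoxia and normoxia overlapped across treatments. YAP1 rose 1.32-fold with ATRA (log2 0.40, SE 0.14, adjusted p = 0.0385, edgeR), a call that was lost in 7 of the 10 fits that left out a library, in the fit of 14 libraries (adjusted p = 0.0891, edgeR), with only the groups compared (0.0956) and with no filter on low counts (0.0532). The lowest value, 0.24, came without hyperoxia ATRA replicate 2 (adjusted p = 0.234, edgeR). Its log2 fold change was 0.33 with vehicle (95% interval -0.014 to 0.67, adjusted p = 0.197, edgeR, and 0.0452 with only the groups compared) and 0.42 without vehicle (95% interval 0.05 to 0.80, adjusted p = 0.121, edgeR). Without hyperoxia replicate 2 without vehicle, which leaves the library that stood apart as the lone sample of its group, the latter was 0.56 and called (adjusted p = 0.0228, edgeR). Without the library that stood apart it was 0.19 (adjusted p = 0.657).

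WWTR1 (gene 25937, chr3:149517235-149724788) did not pass the test in any oxygen comparison. It measured 182 and 144 CPM in hyperoxia with vehicle and 190.1 and 197 CPM in normoxia with vehicle, 156 and 170.0 CPM against 185 and 200.1 CPM without vehicle, and 180, 127 and 141 CPM against 164, 139 and 144 CPM with ATRA. Hyperoxia libraries were lower without overlap with vehicle and without it, and overlapped normoxia with ATRA. The log2 fold changes were -0.25 with vehicle (95% interval -0.59 to 0.09, adjusted p = 0.348, edgeR), -0.24 without vehicle (-0.60 to 0.12, adjusted p = 0.359, and -0.18 without the library that stood apart) and 0.01 with ATRA (-0.28 to 0.29, adjusted p = 0.981). The last of these took either sign across settings.

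CAVIN2 (gene 8436, chr2:191834310-191847088) encodes a coat protein of caveolae, the membrane pits that flatten under stretch, and was the member that fell. It measured 40.6 and 38.7 CPM in hyperoxia with vehicle and 60.8 and 56.8 CPM in normoxia with vehicle, and 99.9, 102 and 90.7 CPM against 133, 138 and 138 CPM with ATRA. Without vehicle the groups overlapped, at 54.5 and 34.2 CPM against 50.7 and 58.5 CPM. CAVIN2 fell in hyperoxia with vehicle (log2 fold change -0.57, SE 0.16, adjusted p = 0.0172, edgeR) and with ATRA (-0.49, SE 0.12, adjusted p = 0.00651, edgeR). Without vehicle its log2 fold change was -0.28 (95% interval -0.70 to 0.14, adjusted p = 0.352, edgeR), -0.68 without hyperoxia replicate 1 of that treatment (adjusted p = 0.0518) and -0.06 without hyperoxia replicate 2. With vehicle, each of the 4 libraries decided the call, since without hyperoxia replicate 1 or 2 the adjusted p was 0.0772 or 0.136 (edgeR) and without normoxia replicate 1 or 2 it was 0.106 or 0.0598.

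**Figure D3:**
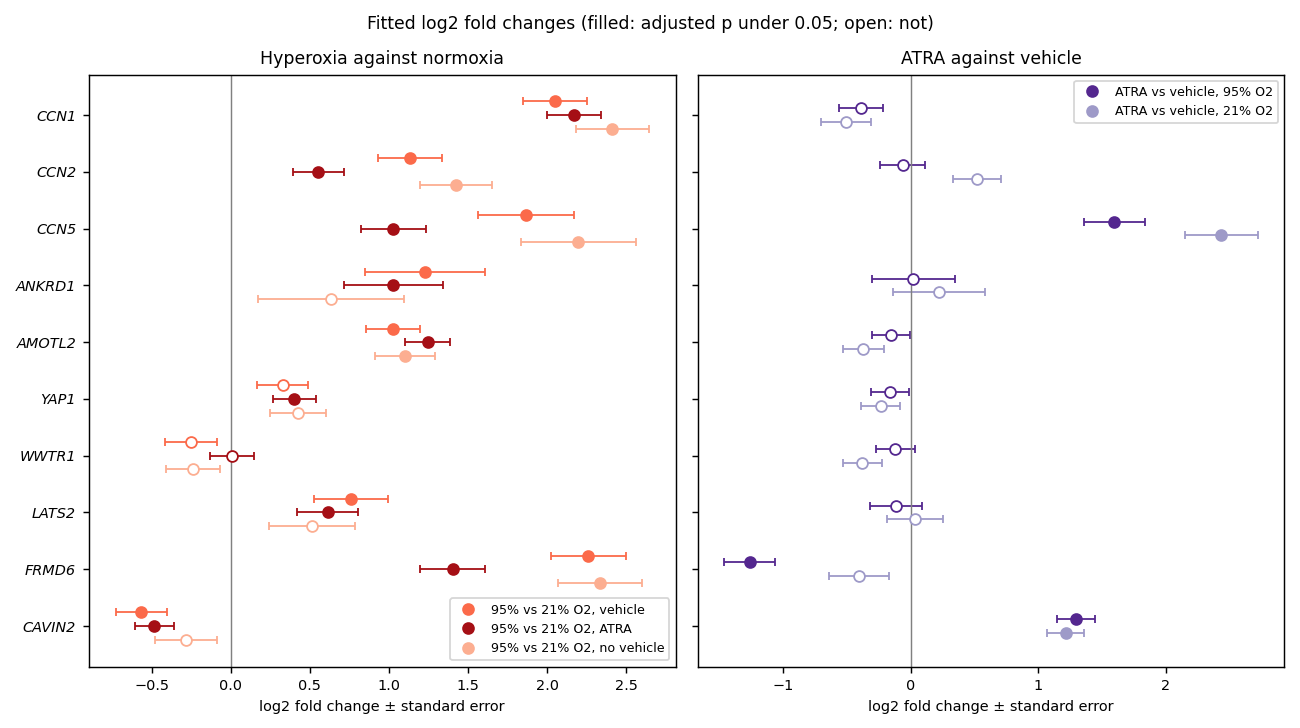
Log2 fold changes of the 10 genes in the 3 oxygen comparisons and the 2 ATRA comparisons, with bars for the SE and filled points for an adjusted p under 0.05. CCN1 lies between 2.05 and 2.41 in the 3 oxygen comparisons and below 0 in both ATRA comparisons, while CCN5 lies above 0 in all 5.

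ATRA, a ligand of nuclear retinoic acid receptors, was compared with vehicle at each oxygen exposure to ask whether it changes the response to hyperoxia. The vehicle and ATRA libraries are those of the oxygen comparisons above. In hyperoxia, 3 of the 10 genes passed the test, 2 higher (CCN5 and CAVIN2) and 1 lower (FRMD6), where 2.21% of all genes passed, 1.52% higher and 0.695% lower. In normoxia, 2 passed, CCN5 and CAVIN2, both higher, where 1.25% of all genes passed, 0.816% higher. The median log2 fold change of the 10 genes was -0.12 in hyperoxia and -0.10 in normoxia, beside 0.0042 and 0.00080 over all genes.

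CCN5 rose with ATRA from 29.1 ± 1.52 CPM (SD, n = 2) to 88.4 ± 9.28 CPM (SD, n = 3) in hyperoxia, 3.03-fold (log2 1.60, SE 0.24, adjusted p = 0.000512, edgeR). In normoxia it rose from 7.24 ± 5.32 CPM (SD, n = 2) to 43.2 ± 2.38 CPM (SD, n = 3), 5.41-fold (log2 2.44, SE 0.29, adjusted p = 4.99e-05, edgeR). No ATRA library overlapped a vehicle library at either exposure. The log2 fold change in normoxia was 1.96 without normoxia vehicle replicate 1 and 3.62 without replicate 2, and both stayed called. Against the controls without vehicle, the rise in hyperoxia was 1.46 on the log2 scale and missed the threshold (adjusted p = 0.0522, edgeR).

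CAVIN2 rose from 39.6 ± 1.34 CPM (SD, n = 2) to 97.4 ± 5.95 CPM (SD, n = 3) with ATRA in hyperoxia, 2.46-fold (log2 1.30, SE 0.15, adjusted p = 1.93e-05, edgeR). It rose from 58.8 ± 2.88 CPM (SD, n = 2) to 136 ± 3.08 CPM (SD, n = 3) in normoxia, 2.32-fold (log2 1.22, SE 0.15, adjusted p = 5.80e-05, edgeR). CAVIN2 thus moved up with ATRA at both exposures and down with hyperoxia under both treatments.

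FRMD6 fell with ATRA in hyperoxia, from 119 ± 15.8 CPM (SD, n = 2) to 50.1 ± 12.2 CPM (SD, n = 3), with a log2 fold change of -1.26 (SE 0.20, adjusted p = 0.000843, edgeR). It stayed above normoxia with ATRA. In normoxia the ATRA libraries also lay below the vehicle libraries, but the log2 fold change of -0.40 did not pass (95% interval -0.89 to 0.09, adjusted p = 0.715, edgeR). The fall in hyperoxia missed the threshold without hyperoxia vehicle replicate 1 (-1.13, adjusted p = 0.0614, edgeR) and against the controls without vehicle (-1.02, adjusted p = 0.0634).

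For CCN1, the hyperoxia libraries with ATRA lay below those with vehicle without overlap, and likewise in normoxia. Its log2 fold changes with ATRA were -0.39 in hyperoxia (95% interval -0.74 to -0.03, adjusted p = 0.314, edgeR) and -0.51 in normoxia (-0.91 to -0.10, adjusted p = 0.374), neither past the threshold. CCN2 gave -0.06 in hyperoxia (95% interval -0.42 to 0.30, adjusted p = 0.932, edgeR) and 0.52 in normoxia, where all ATRA libraries were higher (0.13 to 0.91, adjusted p = 0.311). The other members, ANKRD1, AMOTL2, YAP1, WWTR1 and LATS2, had log2 fold changes with ATRA between -0.16 and 0.02 in hyperoxia and between -0.38 and 0.22 in normoxia, with adjusted p of 0.401 or more. In normoxia, the ATRA libraries lay below the vehicle libraries without overlap for AMOTL2 (-0.37, 95% interval -0.70 to -0.04) and WWTR1 (-0.38, -0.69 to -0.06). They did so for YAP1 too, with an interval from -0.55 to 0.08. The intervals of ANKRD1 and LATS2 in normoxia, and of all these members in hyperoxia, included 0. Intervals were widest for ANKRD1, from -0.66 to 0.71 in hyperoxia and from -0.53 to 0.98 in normoxia.

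Whether ATRA acted differently in hyperoxia and normoxia was tested by the interaction term. None of the 10 genes passed with edgeR, where 21 of 14957 genes did (0.14%, with 0.1% higher and 0.0401% lower), and 1078 of all genes had an unadjusted p under 0.05. Among the 10, CCN2, CCN5 and FRMD6 had an unadjusted p under 0.05 (0.0351, 0.0333 and 0.0120). With DESeq2, 96 genes passed over all. CCN1, AMOTL2, YAP1, WWTR1 and CAVIN2 did not pass, and the other members, CCN2, CCN5 and FRMD6 among them, were given no adjusted p. FRMD6 had an interaction of -0.86 (95% interval -1.51 to -0.21, adjusted p = 0.485, edgeR), CCN5 of -0.84 (-1.60 to -0.07, adjusted p = 0.633) and CCN2 of -0.58 (-1.12 to -0.04, adjusted p = 0.642), where a negative value is a smaller rise or larger fall with ATRA in hyperoxia than in normoxia.

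Levels can be compared between genes per length of transcript. In CPM per kilobase of exon, averaged over the 14 libraries, CCN1 was highest at 32.5, followed by CAVIN2 at 25.6, AMOTL2 at 24.6, CCN2 at 24.3, WWTR1 at 19.8, YAP1 at 16.0, ANKRD1 at 10.1, CCN5 at 7.83, LATS2 at 7.14 and FRMD6 at 5.59. The order changed with oxygen. In hyperoxia, CCN1 at 53.4 ± 9.25 (SD, n = 7) lay above AMOTL2 at 33.8 ± 2.39 and CCN2 at 32.0 ± 3.97, which lay within their spread of each other. In normoxia, CAVIN2 at 29.7 ± 13.98 (SD, n = 7), WWTR1 at 20.9 ± 3.01, CCN2 at 16.6 ± 4.35, AMOTL2 at 15.4 ± 2.81 and YAP1 at 13.8 ± 1.20 came before CCN1 at 11.6 ± 2.67. From CAVIN2 down to CCN1, neighbours in this order differed by less than the larger of their SDs. The place of CAVIN2 came from the ATRA libraries, at 44.6 ± 1.01 (SD, n = 3). With vehicle it was 19.2 ± 0.942 (SD, n = 2) beside 23.2 ± 0.616 for WWTR1, and without vehicle 17.9 ± 1.81 (SD, n = 2) beside 23.1 ± 1.25. The SDs span 3 treatments, and lengths are the union of exons in GENCODE 44, which need not be the transcripts these cells make.

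Other genes of the pathway were counted in lists fixed by name. Of the 20 tested genes of the Hippo kinase cassette and its upstream regulators (21 in the list), 9 rose in hyperoxia with vehicle, 9 with ATRA and 6 without vehicle, and none fell, with median log2 fold changes of 0.52, 0.26 and 0.28. Over all genes tested, 8.68%, 11.4% and 7.57% rose in these comparisons, and 8.81%, 11.3% and 7.58% fell. Of the 20 tested genes of the list, 3 are LATS2, FRMD6 and AMOTL2, described above. Of the other 17, 6, 6 and 4 rose. They included PTPN14, a phosphatase that binds YAP1 (log2 1.19 with vehicle, SE 0.17, adjusted p = 3.66e-05, edgeR), AJUBA, a LIM protein that inhibits LATS kinases (0.94, SE 0.14, adjusted p = 3.67e-05), and NF2, which activates LATS kinases at the membrane (0.78, SE 0.17, adjusted p = 0.00179). LATS1 rose with vehicle (0.75, SE 0.22, adjusted p = 0.0224, edgeR) and did not pass with ATRA (0.27, adjusted p = 0.329) or without vehicle (0.27, adjusted p = 0.543). STK4, a kinase upstream of it, rose with vehicle (0.63, SE 0.16, adjusted p = 0.00859, edgeR) and with ATRA (0.66, SE 0.13, adjusted p = 0.000986), and did not pass without vehicle (0.28, adjusted p = 0.235). TAOK2, another kinase of the list, rose with vehicle (0.58, SE 0.15, adjusted p = 0.0102, edgeR) and with ATRA (0.72, SE 0.13, adjusted p = 0.000252). It also rose without vehicle (0.77, SE 0.17, adjusted p = 0.00575). WWC1 rose with ATRA only (0.59, SE 0.11, adjusted p = 0.000627, edgeR). The genes that rose thus include inhibitors of YAP1, an activator of the kinases (NF2) and an inhibitor of the kinases (AJUBA). With ATRA, FRMD6 in hyperoxia was the only call in this list at either exposure, where 2.21% of all genes passed in hyperoxia and 1.25% in normoxia.

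Of 22 YAP/TAZ target genes used as a signature across tumour types, 11 rose and 1 fell in hyperoxia with vehicle, 10 rose and 1 fell with ATRA, and 9 rose and 1 fell without vehicle. Over all genes tested, 8.68%, 11.4% and 7.57% rose and 8.81%, 11.3% and 7.58% fell. The target list holds CCN1, CCN2, ANKRD1, AMOTL2 and LATS2. Of its 17 other genes, 6, 5 and 6 rose and 1 fell in each, with median log2 fold changes of 0.70, 0.42 and 0.71. PTPN14, among these 17, is also in the Hippo list above and counted in both. GADD45A, a stress gene known to respond to p53 as well, changed most (4.62 with vehicle, SE 0.30, adjusted p = 9.20e-10, edgeR), from 8.97 ± 2.86 CPM (SD, n = 2) to 231 ± 4.59 CPM (SD, n = 2). AXL, a receptor tyrosine kinase, rose by 1.19 (log2, SE 0.13, adjusted p = 1.03e-06). The gene that fell in each was CCDC80, a secreted matrix protein, at -1.42 with vehicle (SE 0.30, adjusted p = 0.00161). Without replicate 1 of hyperoxia without vehicle, which leaves 1 library in that group, the median log2 fold change of the 22 genes in that comparison was 0.86. It was 0.78 with that library.

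**Figure D4:**
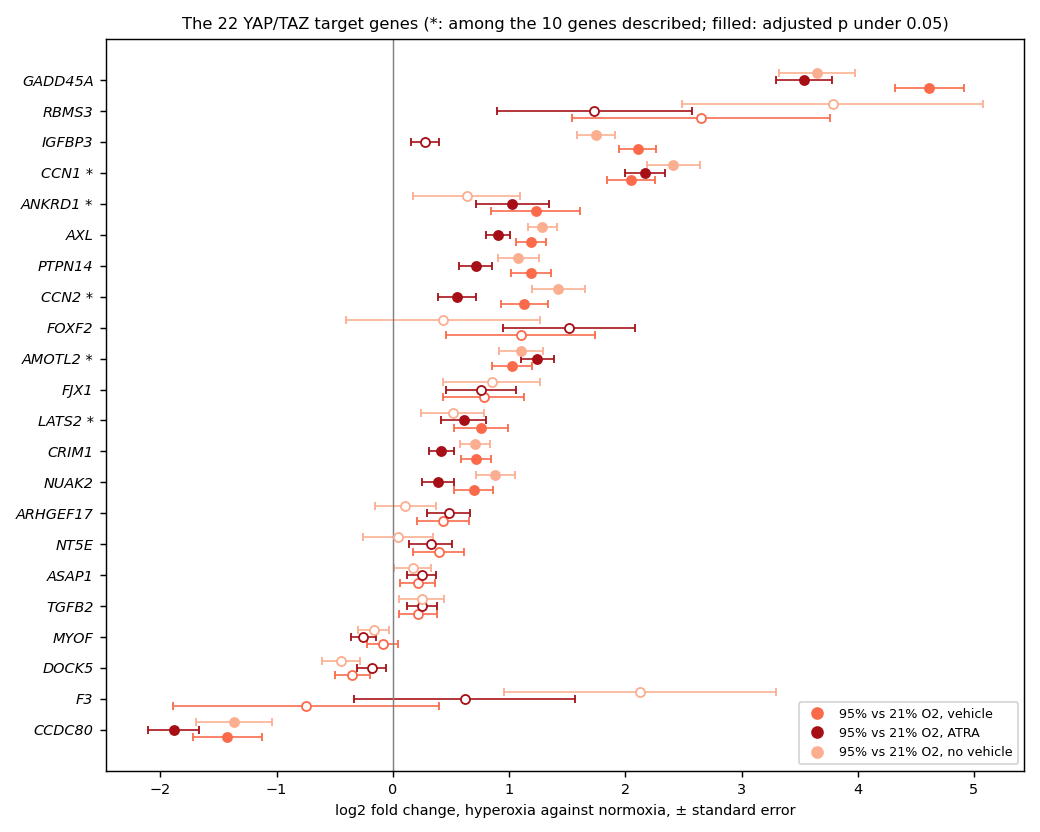
Log2 fold changes of the 22 YAP/TAZ target genes in hyperoxia against normoxia with vehicle, with ATRA and without vehicle, 1 row for each gene, with bars for the SE, filled points for an adjusted p under 0.05 and an asterisk at the 5 of the 10 genes described here. With vehicle, 11 genes rose in hyperoxia and CCDC80 fell, and GADD45A lies farthest right at 4.62.

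In the ATRA comparisons, 4 targets passed in hyperoxia and 2 in normoxia, where 2.21% and 1.25% of all genes passed. In hyperoxia, IGFBP3, CCDC80 and DOCK5 rose and GADD45A fell, and in normoxia IGFBP3 and CCDC80 rose, while no target among the 10 genes passed. IGFBP3, a binding protein of insulin-like growth factors and a known retinoic acid target, rose from 65.5 ± 1.19 CPM (SD, n = 2) to 392 ± 72.8 CPM (SD, n = 3) with ATRA in normoxia, and from 282 ± 14.4 CPM (SD, n = 2) to 475 ± 33.0 CPM (SD, n = 3) in hyperoxia. Its log2 fold changes were 2.58 (SE 0.16, adjusted p = 1.62e-09, edgeR) and 0.75 (SE 0.14, adjusted p = 0.00308).

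Of the coactivators, the TEAD factors and their other partners, 8 of 9 genes were tested, YAP1 and WWTR1 among them. In hyperoxia, 1 rose with vehicle, 3 with ATRA and 0 without vehicle, and 1 fell in each. Over all genes tested, 8.68%, 11.4% and 7.57% rose and 8.81%, 11.3% and 7.58% fell. VGLL4, which competes with YAP1 for TEAD factors, rose in hyperoxia with vehicle (0.91, SE 0.20, adjusted p = 0.00273, edgeR) and with ATRA (0.89, SE 0.16, adjusted p = 0.000432). It did not pass without vehicle (0.52, SE 0.30, adjusted p = 0.267, edgeR). TEAD2 fell in all 3 comparisons, by 0.91 with vehicle on the log2 scale (adjusted p = 0.0147, edgeR), by 0.91 with ATRA (0.00322) and by 1.35 without vehicle (0.00325). TEAD3 rose in hyperoxia with ATRA (1.17, SE 0.33, adjusted p = 0.0138, edgeR). It did not pass with vehicle (0.51, adjusted p = 0.458) or without vehicle (0.91, adjusted p = 0.176). TEAD1 gave 0.15 with vehicle (adjusted p = 0.523). No gene of this list passed in an ATRA comparison. Over all genes 2.21% passed in hyperoxia and 1.25% in normoxia, so the lack of a call among 8 genes says little.

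Of the 6 CCN genes, CCN1, CCN2 and CCN5 rose with oxygen in all 3 comparisons, as did 4.05% of all genes. CCN3 was tested and not called, at 1.64 with vehicle (SE 0.94, adjusted p = 0.268, edgeR). It was 2.38 with ATRA (SE 0.86, adjusted p = 0.0518) and 2.63 without vehicle (SE 1.15, adjusted p = 0.136). Its group means were low, between 0.83 and 8.69 CPM. CCN4 and CCN6 did not pass the filter. Of the 5 caveolar genes, CAV1, the main structural protein of caveolae, rose with vehicle (0.55, SE 0.16, adjusted p = 0.0186, edgeR), with ATRA (0.44, SE 0.13, adjusted p = 0.0171) and without vehicle (0.66, SE 0.17, adjusted p = 0.0140), where CAVIN2 fell or did not pass. Over all genes, 4.05% rose in all 3 comparisons. The call of CAV1 without vehicle was lost without replicate 1 of hyperoxia without vehicle, which leaves 1 library in that group. CAV2 rose with ATRA (0.55, SE 0.15, adjusted p = 0.00957), and CAVIN1 and CAVIN3 did not pass in any comparison. CAVIN2 was the caveolar gene that rose with ATRA at both exposures, where 1.52% of all genes rose in hyperoxia and 0.816% in normoxia.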

How the data were processed

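RNA was sequenced from A549 cells. The deposited values are raw counts per gene, which the authors made with HTSeq after trimming by Trimmomatic 0.38 and alignment by HISAT2 to hg38. The libraries were made with a stranded kit. The annotation release and the strand setting of the counting are not given in the sources used here. Reads outside annotated genes (48.6% to 55.3% of each library) and the other 4 summary lines of each file were left out of library sizes.

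Counts were analysed with edgeR 4.0.16 (limma 3.58.1) in R 4.3.3, with filterByExpr (minimum count 10, minimum total 15), TMM normalization, a quasi-likelihood test and Benjamini-Hochberg adjustment over all genes tested, called at 0.05. The model had 4 groups and 10 libraries. The comparison without vehicle came from 14 libraries in 6 groups, and printed CPM of these libraries come from its normalization. Those of the library without a group come from TMM over all 15 libraries. Intervals are at 95%. Log2 CPM for principal components and gene patterns used a prior count of 2. Every pair of libraries in a group differed by more than sampling noise. The test was checked on simulated data. Promoter and gene positions are from RefSeq for GRCh38.p14, and figures were made in Python 3.11.15 with matplotlib 3.10.9.

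The genes, lists and tests were chosen with earlier results of these data known. The text names the 10 genes, genes of the lists, mostly called ones, and the 2 genes most like each in pattern. The alternatives were DESeq2 1.42.0, RLE size factors, no filter, only the groups compared, 14 libraries, controls without vehicle, both controls together, library sets as a block, and each library left out. A comparison of the lists without the library that stood apart was added after seeing the data.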

Additional observations from a re-analysis of the deposited data

Results flagged for a closer look

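IGFBP3, a member of the YAP/TAZ target list, responded differently to ATRA at the 2 oxygen exposures. Its interaction term was -1.83 on the log2 scale (SE 0.20, adjusted p = 0.000130 from edgeR), and its rise with ATRA was smaller in hyperoxia. All 3 ATRA libraries lay above both vehicle libraries at each exposure. In hyperoxia against normoxia with ATRA its log2 fold change was 0.28 (adjusted p = 0.106, edgeR), beside 2.11 with vehicle (adjusted p = 8.28e-09).

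The library without a group was compared with the 4 normoxia libraries that received no ATRA, and 8 of the 10 genes lay above all 4 of them. It measured 229 CPM of CCN1, 89.5 CPM of CCN2, 33.0 CPM of CCN5 and 25.6 CPM of ANKRD1. It also measured 274 CPM of AMOTL2, 111 CPM of YAP1, 59.5 CPM of LATS2 and 99.6 CPM of FRMD6. These are values of a single library whose labels give conflicting conditions, and no test was made. The share of all genes above these 4 libraries was not computed. The count of 8 therefore cannot be read as particular to the 10 genes.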

How the results depend on the processing

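Of 400 values of single genes of the 10 under other settings, 367 kept their direction and side of the threshold, and of 640 with a library left out, 590 did. Another 16 and 29 lost their call, 1 and 1 gained one, and 16 and 20 changed sign. None of those that changed sign was called. Values given no adjusted p, as for some genes in the DESeq2 interaction, were counted as not called. The number of the 10 genes called was 1 (5 in the report) without vehicle when only the 4 libraries compared were fitted, where CCN1 alone passed. With all 14 libraries it was 5 (8) for oxygen with vehicle and 4 (9) for oxygen with ATRA, and with controls without vehicle it was 1 (3) for ATRA in hyperoxia. With libraries left out it ranged from 5 to 8 for oxygen with vehicle, 5 to 8 with ATRA and 5 to 6 without vehicle, and from 2 to 3 for ATRA in hyperoxia. The cause was not tested.

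WWTR1 in oxygen with ATRA was -0.0051 with DESeq2, -0.0047 with RLE size factors, -0.0029 with no filter and -0.010 with only the groups compared. The titles give library numbers and no replicate numbers, so sets of consecutive numbers served as a block. It changed no call of the 10 genes, with 8, 9, 5, 3, 2 and 0 called in the 6 comparisons. Under the block WWTR1 was -0.0053, ANKRD1 with ATRA in hyperoxia -0.087 and LATS2 with ATRA in normoxia -0.058. Correlations were taken between libraries of different groups, after group means were removed. Of 28 pairs within a set, 2 were over 0.1 (median 0.019), and of 53 pairs across sets, 0 were (median -0.0095). Where a group holds 2 libraries, they mirror each other in this measure, so it cannot decide whether the sets pair libraries.

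With controls without vehicle, LATS2 with ATRA in hyperoxia was 0.13, and the interactions were -0.24 for CCN1, 0.38 for ANKRD1, -0.021 for YAP1, 0.094 for LATS2 and -0.20 for CAVIN2. With both controls together they were -0.068 for CCN1, 0.035 for ANKRD1 and -0.079 for CAVIN2. With libraries left out, oxygen with ATRA ranged from -0.15 to 0.080 for WWTR1. ATRA in hyperoxia ranged from -0.11 to 0.21 for ANKRD1, -0.16 to 0.0063 for CCN2, -0.30 to 0.095 for LATS2 and -0.29 to 0.047 for WWTR1. ATRA in normoxia ranged from -0.22 to 1.04 for ANKRD1 and -0.18 to 0.23 for LATS2. The interaction ranged from -0.054 to 0.37 for CCN1, -1.02 to 0.23 for ANKRD1, -0.080 to 0.16 for YAP1 and -0.35 to 0.068 for LATS2.

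Over all genes, calls for oxygen with vehicle numbered 4665 with only the groups compared and 1420 with 14 libraries (2616 in the report), and with ATRA 1975 with 14 libraries (3391). Without vehicle they numbered 58 with only the groups compared (2324), 7364 without hyperoxia replicate 2 and 969 without normoxia replicate 1. For ATRA in hyperoxia they numbered 522 with no filter, 116 with 14 libraries, 66 with controls without vehicle and 182 with both controls (331). For ATRA in normoxia they numbered 286 with DESeq2, 300 with no filter, 70 with 14 libraries and 67 with controls without vehicle (187). The interaction gave 96 with DESeq2, 91 with no filter, and 4, 3 and 5 with 14 libraries, controls without vehicle and both controls (21). Leaving out 1 of the 4 vehicle libraries gave between 1386 and 1523 for oxygen with vehicle. Without hyperoxia vehicle replicate 1 or 2, ATRA in hyperoxia gave 83 or 102, and without normoxia vehicle replicate 1 or 2, ATRA in normoxia gave 56 or 65. ATRA in hyperoxia gave 218 without hyperoxia ATRA replicate 1, and ATRA in normoxia 121 without normoxia ATRA replicate 1. Without vehicle, 1393 passed without normoxia replicate 2. The interaction ranged from 4 to 28. With 2 libraries in 4 of the 6 groups and a floor of up to 1.14 CPM, ANKRD1 and CCN5 in normoxia had the least precise values.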

Other observations

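In the library without a group, WWTR1 measured 162 CPM and CAVIN2 46.9 CPM, both below the 4 normoxia libraries that received no ATRA. For 9 of the 10 genes its level was within the range of the 7 hyperoxia libraries, and AMOTL2 lay above that range. The share of all genes within the hyperoxia range was not computed. CPM of this library came from TMM over all 15 libraries, and the ranges from TMM over 14.

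The genes whose levels most resembled those of single members over the 14 libraries, by Pearson's r of log2 CPM, were read as a description only, since the points share the oxygen exposure and include the hyperoxia library that stood apart. CCN1 was most like RNF40 (0.995) and the AP-1 subunit gene FOSL1 (0.992). AMOTL2 was most like the stress-response gene ATF3 (0.989) and RNF40 (0.983). CCN5 was most like SMAD3 (0.963), which encodes a mediator of TGF-β signalling, and IGFBP3 (0.954). CCN2 was most like KIRREL1 (0.962) and APBA3 (0.959), FRMD6 like NCEH1 (0.975) and SLC6A6 (0.975), and CAVIN2 like EPB41L1 (0.954) and MLEC (0.953). ANKRD1 was most like BTN2A1 (0.957) and SPHK2 (0.928), YAP1 like C9orf47 (0.918) and RNF14 (0.916), WWTR1 like FOXK2 (0.877) and DMC1 (0.827), and LATS2 like IL3RA (0.931) and RALGAPB (0.917). Within the 7 hyperoxia libraries, the lowest r between members was -0.96, for CCN2 and ANKRD1, which had 0.32 within the 7 normoxia libraries. ANKRD1 and YAP1 had -0.87 in hyperoxia and 0.05 in normoxia. FRMD6 and CAVIN2 had -0.94 in hyperoxia and -0.58 in normoxia. CCN5 and CAVIN2 had 0.94 in hyperoxia and 0.93 in normoxia, and both rose with ATRA.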
